A study of Mus musculus with 6 samples.

Results

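Ferroptosis is a form of cell death that requires iron, and 10 genes of iron storage, uptake, export and sensing were examined in B16F10 melanoma cells. They were taken by symbol from a table of 27179 genes: Fth1 and Ftl1 (ferritin chains), Tfrc, Steap3 and Slc11a2 (uptake), Slc40a1 (export), Aco1 and Ireb2 (sensing), and Pcbp1 and Ncoa4 (iron delivery to ferritin and ferritin turnover). All 10 were found, each in 1 row. B16F10 is an established mouse melanoma line, labelled wild type, so the libraries represent 1 line and not several tumours. It was grown in DMEM with fetal bovine serum. There were 3 libraries of cells given 0.01% ozonated olive oil (OZO) and 3 of cells given 0.01% olive oil (OLO), each for 6 h. The labels do not say whether these came from separate cultures, but the study describes its B16F10 transcriptome values as independent experiments.

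The measurement used here is the authors' average over all 6 libraries, in log2 CPM (log2 of counts per 1e6 reads). It joins both treatments, so it gives the level of a gene over OZO and OLO cells together, which need not be the level in either group. It says nothing about a difference between OZO and OLO. The columns in which the authors compared the treatments were not used here. Values of single libraries were not analysed, so no level below has a spread between libraries and no difference between genes was tested. The geometric mean library size recovered from genes without reads was 19641946 reads, and 1 CPM stood for 19.6 reads per library. Of 10 melanocyte markers, 9 were in the top 25% of the 21154 genes with reads, among them Dct at 7052 CPM, and Oca2 averaged 0.924 CPM. Of 22 markers of keratinocytes, fibroblasts, immune, endothelial, erythroid and liver cells, 0 were in the top 25% and 19 were under 1 CPM. Pdgfra averaged 3.28 CPM.

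Iron enters most cells bound to transferrin, which the transferrin receptor carries into endosomes. There a reductase frees ferrous iron and a metal transporter moves it to the cytosol, where it is used, stored in the hollow shell of ferritin or exported by ferroportin. The balance is set after transcription by a pair of iron regulatory proteins. When iron is scarce they bind a hairpin, the iron responsive element (IRE), which blocks translation when it lies in a 5′ UTR and protects the transcript from decay when it lies in a 3′ UTR. Transcript levels of these genes therefore give only part of their control.

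The IRE is shown for each of the transcripts that carried it, because it joins the storage, export and uptake genes to the sensing genes. The pattern searched in GENCODE M21 transcripts (GRCm38, the mm10 build) was the loop CAGTGN, 5 bases on either side that pair with each other (G-U pairs allowed), and a C just before the stem, 17 bases in all. Capitals mark the loop, and 30 bases are printed 5′ to 3′ in the strand of the gene.
Fth1: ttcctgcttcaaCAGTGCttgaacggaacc
Ftl1: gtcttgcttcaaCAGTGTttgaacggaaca
Slc40a1: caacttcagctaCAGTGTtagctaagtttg
Tfrc site 1: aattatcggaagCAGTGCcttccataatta
Tfrc site 2: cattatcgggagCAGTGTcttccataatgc
Tfrc site 3: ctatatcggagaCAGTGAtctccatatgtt
Tfrc site 4: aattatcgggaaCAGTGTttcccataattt
Slc11a2: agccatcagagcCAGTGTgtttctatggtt

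Of the 10 genes, 4 held the full pattern, against 448 of all 55450 annotated genes (0.808%). It lay in the 5′ UTR of Fth1, Ftl1 and Slc40a1, a place where 31 of 21951 protein-coding genes (0.141%) had it. In Tfrc it occurred 4 times, all in the 3′ UTR, and Tfrc was the 1 gene of the annotation with at least 4 matches in its UTRs. The Slc11a2 site has 1 unpaired position in the stem and was found only when this was allowed, a looser rule that 6.53% of all genes met. A match describes the letters and is no proof of a working element. The element was searched because it is known to link genes of iron handling, and the 10 were chosen for such roles. Their matches were thus likely beforehand, so the shares describe the list and test nothing. All annotated genes here include noncoding ones.

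In Fth1 the printed bases lie in exon 1 of 4 at chr19:9982732-9982761 on the plus strand, and 115 bases separate the pattern from the start of the coding sequence. In Ftl1 they lie in exon 1 of 4 at chr7:45459778-45459807 on the minus strand, 153 bases before the coding sequence. The 17 bases of these ferritin sites differed at 1 position. The Slc40a1 site, in exon 1 of 8 at chr1:45925464-45925493 on the minus strand, lay 207 bases before the coding sequence and differed from the Fth1 site at 7 of 17 bases and from the Ftl1 site at 6.

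All 4 Tfrc sites lie on the plus strand in the last exon, exon 19 of 19. They span chr16:32631219-32631248, chr16:32631598-32631627, chr16:32631663-32631692 and chr16:32631710-32631739, so the closest lies 891 bases and the farthest 1382 bases past the coding sequence. Among themselves they differed at 2 to 6 of 17 bases. The Slc11a2 site, at chr15:100395152-100395181 on the minus strand, lies in exon 16 of 16, only 40 bases past the coding sequence. It belongs to 1 of 8 annotated Slc11a2 transcripts. The sites of the other genes were likewise in some of their annotated transcripts, namely 5 of 9 for Fth1, 2 of 6 for Ftl1, 3 of 8 for Slc40a1 and 2 of 7 for Tfrc. These totals count annotated transcripts of any type, not coding ones alone, and do not tell how much of each is made. The table counts each gene as a whole, so for all 5 genes forms with and without a site could not be told apart.

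**Figure D1:**
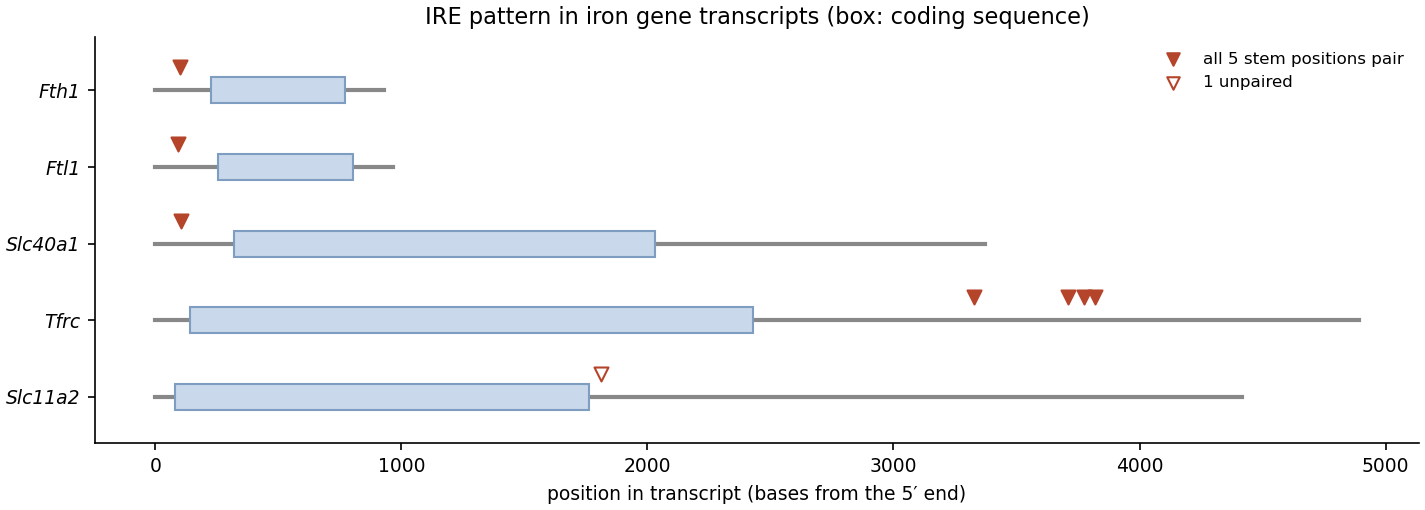
IRE pattern in transcripts of Fth1, Ftl1, Slc40a1, Tfrc and Slc11a2, with the position in bases from the 5′ end on the horizontal axis. Boxes are coding sequences, lines are UTRs, filled triangles are full matches and the open triangle is the match with 1 unpaired position. The 3 sites of Fth1, Ftl1 and Slc40a1 lie before the coding sequence, and those of Tfrc and Slc11a2 after it.

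The levels of the 10 genes spread over a wide range, from storage at the top to export at the bottom. Per kilobase of annotated exon, Ftl1 stood at 10.79 and Slc40a1 at -1.41 log2 CPM. CPM grows with the length of a transcript, so the order of genes is given per kilobase of annotated exon, whereas ranks, percentiles and shares of a list are on the CPM scale unless stated. On the CPM scale 9 of the 10 were in the top 25% of the 21154 genes with reads, whose limit was 39.1 CPM. This count depended on the scale and on the genes it was set against. Among the 19192 genes with reads and an exon length it was 9 on the CPM scale and 7 per kilobase of annotated exon, where Steap3, Ncoa4 and Slc40a1 lay below the limit. Among the 17514 genes with reads and coding transcripts it was 8 on the CPM scale and 5 per kilobase of those transcripts. It was 5 on the CPM scale when only the 11878 genes averaging at least 1 CPM were counted. None of the 10 fell under 1 CPM, against 43.8% of all genes with reads. The list was drawn up for its known roles in iron handling with earlier results of these data known, so these shares describe the list.

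**Figure D2:**
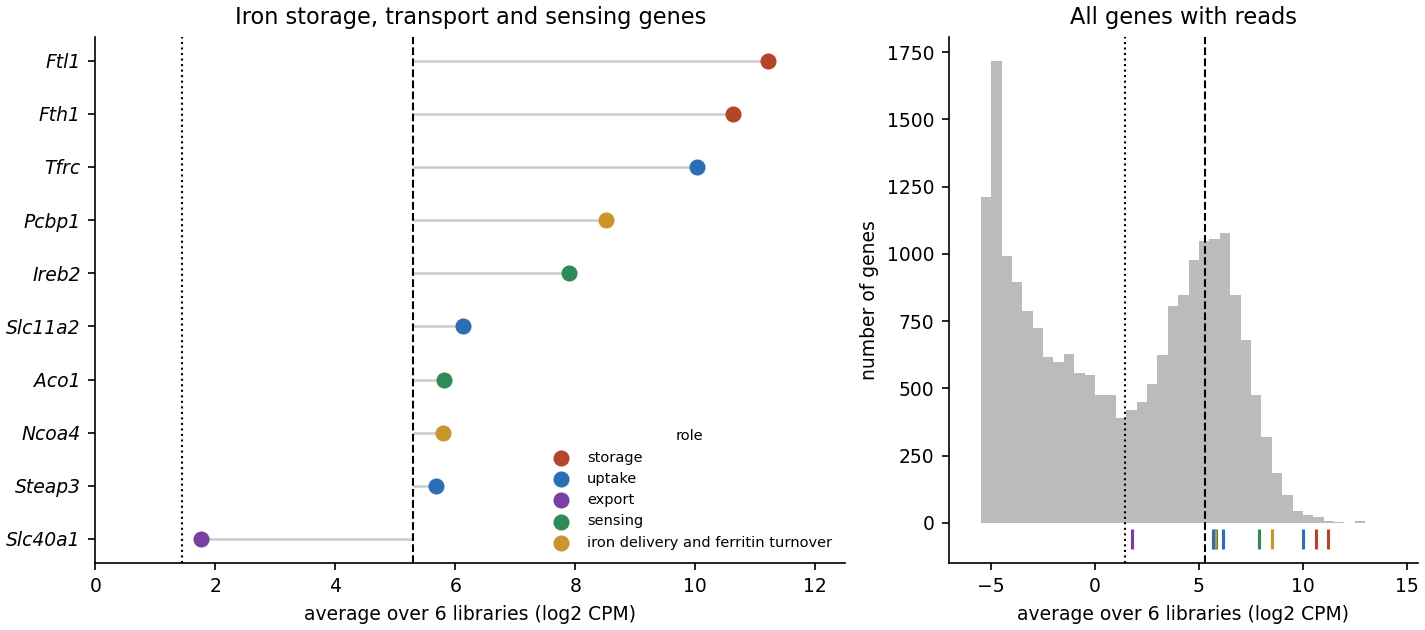
Left, average over 6 libraries in log2 CPM for each of the 10 genes, coloured by role. Right, number of genes with reads at each average log2 CPM, with the 10 genes as ticks. In both, the dashed line is the lower limit of the top 25% (5.29) and the dotted line the median (1.45) of genes with reads. Slc40a1 at 1.76 is the gene to the left of the dashed line, and the ferritin genes and Tfrc lie above 10.

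Both ferritin chains were among the most abundant transcripts of these cells. Ftl1 encodes the light chain, which helps to form the mineral core, and lies on chromosome 7 from 45457944 to 45459884 (ENSMUSG00000050708, minus strand). It averaged 11.21 log2 CPM, or 46653 reads per library, and ranked 16 among all genes. Fth1 encodes the heavy chain, which oxidizes ferrous iron for storage, and lies on chromosome 19 from 9980598 to 9985098 (ENSMUSG00000024661, plus strand). It averaged 10.62 log2 CPM (1579 CPM) and ranked 34. The ferritin genes took 0.406% of the summed average CPM of all genes, and all 10 genes took 0.599%. Each average CPM is back-transformed from the average log2 CPM, so these are shares of summed geometric means and not of reads.

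Per kilobase of annotated exon, Ftl1 stood at 10.79 and Fth1 at 8.83 log2 CPM. The difference of Fth1 minus Ftl1 was -1.96 on the log2 scale, a 3.89-fold lower level of Fth1. Its size depends on the length used, because 3469 bases are annotated as exonic in Fth1, retained introns included, but only 1558 in its basic coding transcripts. With coding transcripts the difference was -1.28, or 2.42-fold. Light chain transcripts exceeded heavy chain transcripts with each length. Reads of Ftl1 may be shared with near-identical copies. Among rows with a ferritin symbol 1 is such a copy, Ftl1-ps2, at 0.133 CPM, and adding it left the difference at -1.96. A value this low could not move the difference. Reads dropped in counting, or given to copies under other names, cannot be seen here, so sharing was not tested. Of the 11 other ferritin rows, 8 had no reads and all 11 were under 1 CPM. Ftmt, the mitochondrial ferritin, averaged 0.122 CPM (1.89 reads per library).

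Uptake genes differed widely. Tfrc, the receptor that binds transferrin at the cell surface, lies on chromosome 16 from 32608920 to 32632794 (ENSMUSG00000022797, plus strand). It averaged 1039 CPM, ranked 66 among all genes, and rested on 20416 reads per library. Its family partner Tfr2, a transferrin sensor of liver and erythroid cells, averaged 0.089 CPM, close to 1 read per library. Steap3, the endosomal reductase that turns ferric into ferrous iron, lies on chromosome 1 from 120190757 to 120272705 (ENSMUSG00000026389, minus strand) and averaged 51.0 CPM. Slc11a2, which encodes the metal transporter DMT1, lies on chromosome 15 from 100387898 to 100425072 (ENSMUSG00000023030, minus strand) and averaged 70.3 CPM. Per kilobase, Tfrc stood at 7.39 log2 CPM, Slc11a2 at 3.47 and Steap3 at 3.16. The receptor was thus far above the genes of the later steps.

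Among the STEAP reductases, Steap3 was the highest per kilobase, at 3.16 log2 CPM. Steap1 stood at 2.23 and Steap2 at 1.29, which is 1.90-fold and 3.64-fold below Steap3. Steap4 averaged 0.048 CPM. Slc11a1, the partner of Slc11a2 known from phagocytes, averaged 0.322 CPM.

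The export gene had the lowest level of the 10. Slc40a1 encodes ferroportin, the iron exporter of animal cells, and lies on chromosome 1 from 45908068 to 45926523 (ENSMUSG00000025993, minus strand). Its average of 3.38 CPM rested on 65.9 reads per library, close to the middle of the genes with reads (percentile 51.3). The counting error of this average over 6 libraries was 5.03%, against at most 1.29% for the other 9 genes, and this covers counting only. Per kilobase, Slc40a1 stood at -1.41 log2 CPM. Tfrc minus Slc40a1 was 8.81 per kilobase of all exons and 7.64 per kilobase of coding transcripts on the log2 scale. Slc11a2 minus Slc40a1 was 4.88 and 3.61. Slc40a1 was the lowest of the 10 with each length.

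Of the sensing genes, Ireb2 was above Aco1. Ireb2 encodes IRP2, which is degraded when iron is plentiful, and lies on chromosome 9 from 54863789 to 54912530 (ENSMUSG00000032293, plus strand). It averaged 238 CPM. Aco1 encodes IRP1, a cytosolic aconitase that binds IREs once it has lost its iron-sulfur cluster, and lies on chromosome 4 from 40143081 to 40198338 (ENSMUSG00000028405, plus strand). It averaged 56.4 CPM. Aco1 minus Ireb2 per kilobase was -0.998 on the log2 scale, and -1.48 with coding transcripts, so Ireb2 exceeded Aco1 by 2.0-fold or by 2.80-fold. Fbxl5, the iron-binding ubiquitin ligase subunit that marks IRP2 for decay, averaged 54.3 CPM.

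Pcbp1, an RNA-binding protein that also carries iron to ferritin, lies on chromosome 6 from 86524492 to 86526321 (ENSMUSG00000051695, minus strand). It averaged 364 CPM and stood at 7.64 log2 CPM per kilobase. Its partner Pcbp2 averaged 584 CPM and 6.81 log2 CPM per kilobase. The order of Pcbp1 and Pcbp2 thus turned with length correction, and with coding transcripts Pcbp1 minus Pcbp2 was 0.38 on the log2 scale. Pcbp4 averaged 72.0 CPM and Pcbp3 0.390 CPM. An antisense gene, 1600020E01Rik, overlaps the 5′ end of Pcbp1 and averaged 14.1 CPM. The sources used here do not say whether counting used strand, so reads of the overlap cannot be assigned. Ncoa4, the receptor that carries ferritin to lysosomes for breakdown, lies on chromosome 14 from 32159865 to 32179855 (ENSMUSG00000056234, plus strand) and averaged 55.4 CPM. Its level per kilobase, 2.56 on the log2 scale, was 3.76 with coding transcripts, whose exons cover 4097 of the 9365 bases annotated as exonic.

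**Figure D3:**
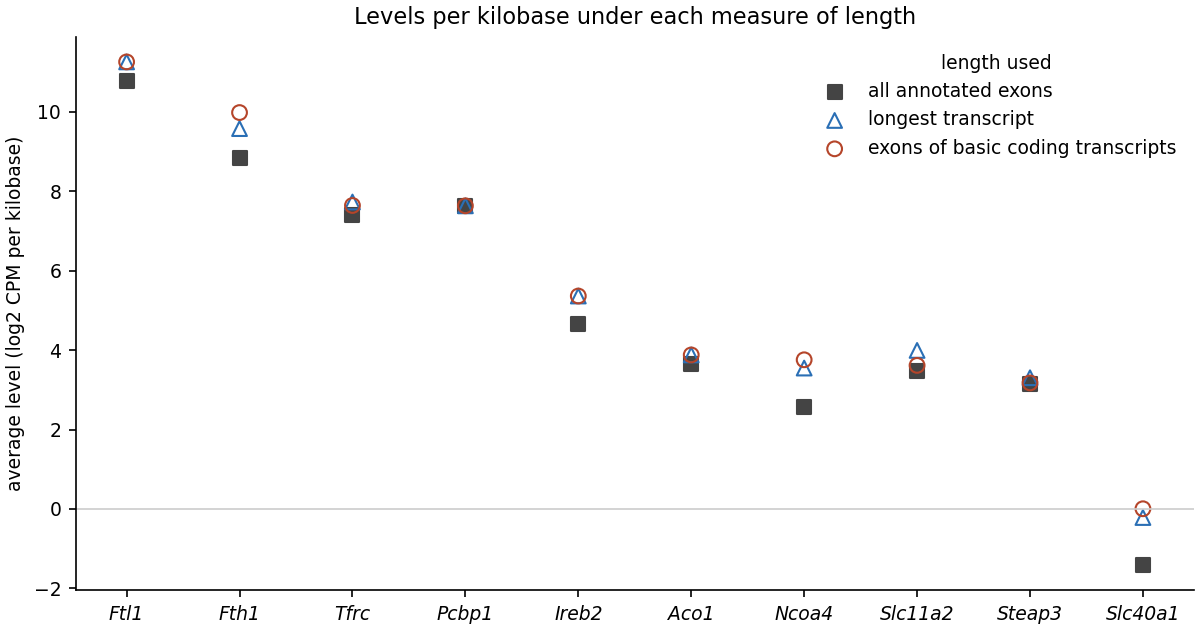
Average level in log2 CPM per kilobase for the 10 genes, with length taken as all annotated exons (squares), the longest transcript (triangles) or the exons of basic coding transcripts (circles). Ftl1 and Fth1 are highest and Slc40a1 lowest with each length, whereas Ncoa4 moves from 2.56 to 3.76.

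The order from high to low per kilobase of annotated exon was Ftl1, Fth1, Pcbp1, Tfrc, Ireb2, Aco1, Slc11a2, Steap3, Ncoa4 and Slc40a1. With coding transcripts, Tfrc (7.64) and Pcbp1 (7.64) were level, and Ncoa4 (3.76) lay between Aco1 (3.88) and Slc11a2 (3.62). Whether such neighbours differ beyond the spread between libraries was not tested.

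Other iron genes were read from lists of 59 genes by role, all of which were in the table. Of these, 22 were in the top 25% of genes with reads on the CPM scale (37.3%) and 19 were under 1 CPM (32.2%). Of 14 other uptake genes, 8 were under 1 CPM (57.1%), against 43.8% of all genes with reads and 56.3% of all 27179 genes. The list median was -0.92 log2 CPM, against 1.45 for all genes with reads. Trf, which encodes transferrin itself, averaged 214 CPM, and Slc39a14, a carrier of iron not bound to transferrin, averaged 75.6 CPM. Timd2 averaged 0.038 CPM. Lcn2, a carrier of iron siderophores, had a single read in 1 library.

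Of 8 genes of export and systemic control, 7 were under 1 CPM. The exception was Cp, encoding the copper ferroxidase ceruloplasmin that loads exported iron onto transferrin, at 88.1 CPM. Of the related ferroxidases, Heph averaged 0.070 CPM and Hephl1 had a single read in 1 library. Hamp, encoding the liver hormone hepcidin, averaged 0.076 CPM.

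Genes of iron sensing and delivery were covered broadly, with 7 of 11 in the top 25% and a median of 5.78 log2 CPM. Skp1, a subunit of the ligase that contains Fbxl5, stood at 6.91 log2 CPM per kilobase of annotated exon and Pcbp2 at 6.81, and with coding transcripts Skp1 (7.15) lay below Pcbp2 (7.25). Bola2 and Pcbp3 were lowest of the 11 with either length. Of 5 endosomal genes, 3 were in the top 25%, among them Snx3 at 114 CPM and Tcirg1 at 64.5 CPM.

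Mitochondrial iron and iron-sulfur cluster genes had a median of 4.87 log2 CPM, and 9 of 21 were in the top 25%. Ftmt and Glrx5, a glutaredoxin of cluster transfer, were the 2 genes of this list under 1 CPM, with Glrx5 at 0.125 CPM.

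**Figure D4:**
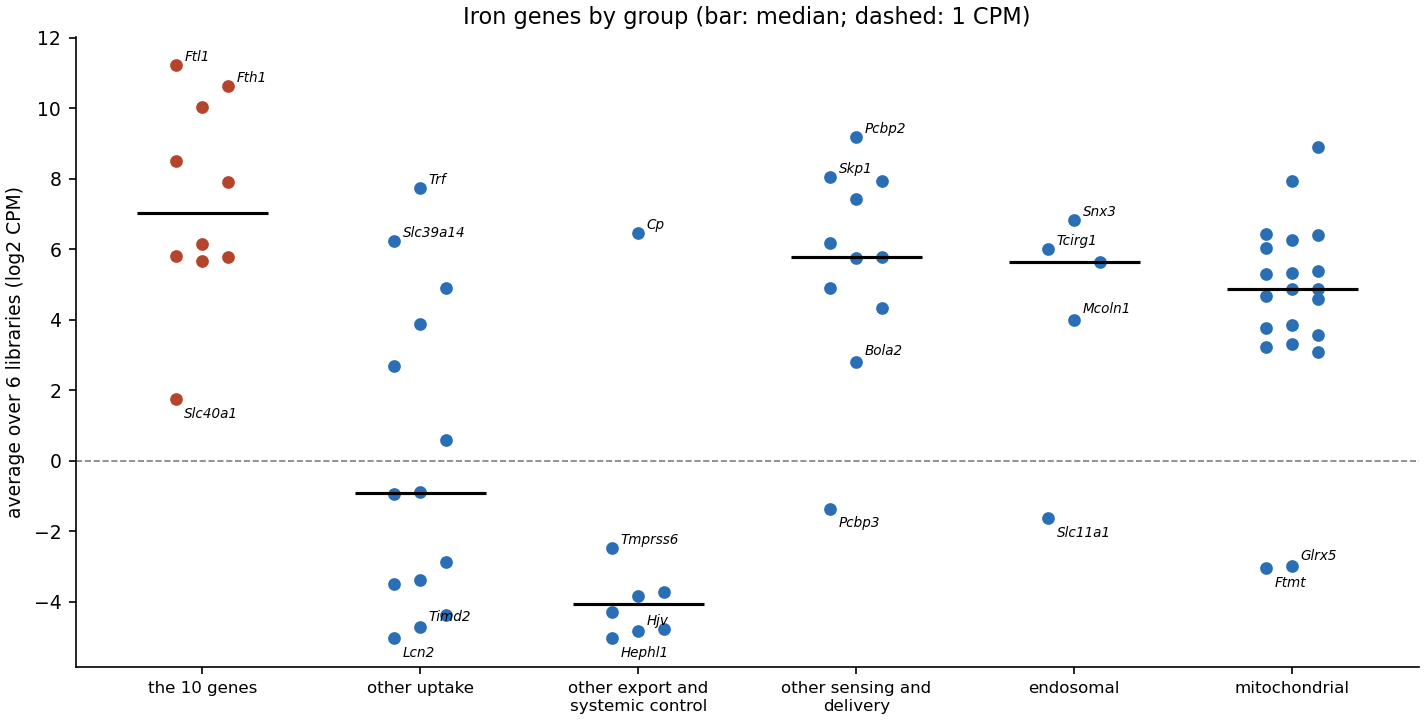
Average over 6 libraries in log2 CPM for the 10 genes (red) and for 59 other iron genes by role (blue). Each point is a gene, bars are medians and the dashed line is 1 CPM. The 10 genes all lie above 1 CPM, whereas 7 of 8 other genes of export and systemic control lie below it, with Cp as the exception.

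Genes with the full IRE pattern in a 5′ UTR covered a wide range of levels. Of the 31 protein-coding genes with it in a 5′ UTR, 30 were in the table and 14 were in the top 25% of genes with reads on the CPM scale. Their median was 4.54 log2 CPM. Ftl1 and Fth1 were among the 14. The 31 also include Slc40a1 and Ftl1-ps2, the copy of Ftl1 named above, which GENCODE M21 lists as protein-coding. Ftl1 had the highest CPM of the 30 in the table, without regard to length. Alas2, the erythroid enzyme of heme synthesis, averaged 0.250 CPM.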

How the data were processed

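RNA of 6 B16F10 samples (3 OLO, 3 OZO) was sequenced. According to the methods and the submitters' processing notes, the authors aligned reads to mm10 with HISAT2 (2.1.0), counted them with featureCounts (2.1.1) and compared treatments with limma-voom (3.58.1). The deposited table holds, for each of 27179 genes, an average log2 CPM over all libraries, as the authors computed it, and 5 columns of their comparison (log2 fold change, moderated statistic, unadjusted and adjusted p-value, log odds). These 5 columns are the authors' own findings and were not used here. They describe a UCSC mm10 annotation and TPM scaling for StringTie (1.3.4d) estimates, and a directional library kit. For the featureCounts and limma-voom steps, the filter, scaling, annotation and strand setting are not given in the sources used here.

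Since voom adds 0.5 reads to each count, the value shared by the 6025 genes without reads gave the geometric mean library size (19641946 reads, after any scaling) and reads per library. Levels of genes with few reads include this addition. Percentiles on the CPM scale were taken over the 21154 genes with reads, and those per kilobase over the 19192 of them with an exon length or the 17514 with coding transcripts, each Ensembl identifier once. Positions, exon lengths and transcripts came from GENCODE M21 (GRCm38), in which 23821 of 24065 Ensembl identifiers were found. It may differ from the annotation the authors counted on. The IRE search and the recovery of reads were tested on simulated data. The planned test of OZO against OLO needed values of single libraries and was not made. The rule named all 10 genes, their pseudogenes and up to 4 genes of each other list (highest and lowest); some of these are not reported here. Other genes named beside them, such as the STEAP partners, Pcbp4 and Fbxl5, fall outside it and were picked with their values in view. Genes and lists were chosen with earlier results of these data known. Python 3.11.15, numpy 2.4.6, pandas 2.3.3, scipy 1.17.1 and matplotlib 3.10.9 were used.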

Additional observations from a re-analysis of the deposited data

How the results depend on the processing

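No paired analysis was possible because the value used is 1 average over all libraries. For the same reason another normalization, another filter and leaving out each library were not run. The count of the 10 genes in the top 25% was 9 with all genes included and 5 among genes averaging at least 1 CPM. Per kilobase of annotated exon it was 7, against 9 by CPM among the same 19192 genes. Per kilobase of coding transcripts it was 5, against 8 by CPM among the same 17514 genes. Coding lengths and both CPM counts on these gene sets were chosen after seeing the data. Fth1 minus Ftl1, -1.96 on the log2 scale, was -1.68 with the longest transcript, -1.28 with coding transcripts and -0.59 without length correction. Aco1 minus Ireb2, -0.998, was -1.48 with the longest transcript, -1.48 with coding transcripts and -2.07 without length correction. Both kept their direction under each of these settings. The IRE pattern was found in 4 genes with the longest transcripts alone, and in 5 with 1 unpaired position or without the C before the stem, Slc11a2 being added in both, by its 3′ UTR site in the former and by another match inside its coding sequence in the latter. Of all annotated genes, 6.53% met the former rule and 3.32% the latter, against 0.808% for the full pattern.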

Other observations

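Trf and Cp stood out among the genes of circulating iron proteins, which are known mainly as liver products. Trf averaged 214 CPM, in percentile 95.6 of genes with reads, and Cp averaged 88.1 CPM, in percentile 86.7. The liver markers Alb, Apoa1 and Ttr averaged 0.290, 0.250 and 0.696 CPM. Per kilobase of annotated exon, Trf stood at 6.01, Cp at 3.20 and Ttr at -0.77 log2 CPM. Meltf, the membrane protein melanotransferrin that was first described on human melanoma cells, averaged 0.096 CPM, close to 1 read per library (1.38).

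Glrx5 averaged 0.125 CPM (1.96 reads per library), and stood at -4.88 log2 CPM per kilobase of annotated exon, the lowest of the 21 genes of mitochondrial iron in the list. Ftmt stood at -3.57 and Iba57 at 1.03 on that scale. No cause was tested for this value. The genes of both paragraphs were picked with their values in view.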
